A study of Mus musculus with 6 samples.

Results

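Transcripts of 10 interleukin-1 family genes were followed in mouse corneas with experimental dry eye. The genes are Il1a, Il1b, Il18 and Il33, which encode agonist ligands, Il1rn, which encodes the receptor antagonist, and Il1r1, Il1rap, Il1r2, Il18r1 and Il1rl1, which encode receptor chains. They were chosen by name from the deposited expression table and are 10 of its 17794 genes. In both groups dry eye had first been produced with benzalkonium chloride, an eye drop preservative that injures the corneal epithelium. The mice then received vehicle or luteolin, a plant flavone, for 10 days, and RNA was sequenced from whole cornea in 3 libraries per group. Undamaged corneas were not analysed here, the labels give no strain or age, and they do not tie libraries to separate mice. The p-values therefore measure only the spread between these libraries, which may be technical.

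Interleukin-1 alpha is stored in epithelial cells and can act when those cells are damaged, whereas interleukin-1 beta is mostly made on demand by myeloid cells and is cut to its active form by caspase-1. Both bind the receptor encoded by Il1r1, which needs the accessory protein encoded by Il1rap to signal through MyD88 and IRAK kinases to NF-kB. The antagonist occupies the same receptor without recruiting the accessory protein, and the type 2 receptor encoded by Il1r2 is a decoy that binds ligand without signalling. Interleukin-33 is a nuclear protein of barrier cells and binds ST2, the product of Il1rl1, which also pairs with the accessory protein. Interleukin-18 is made ahead of need by many epithelia and binds the receptor encoded by Il18r1, with a second chain encoded by Il18rap. On the ocular surface, interleukin-1 is known for drawing leukocytes into the cornea and for inducing matrix metalloproteinases in dry eye.

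Library totals ran from 16084855 to 16469699 estimated counts, and replicates of a group were distinct libraries, as their counts lay further apart than sampling alone would put them (chi-square divided by its degrees of freedom, 6.30 to 30.3). Of 13838 genes tested with edgeR, 58.9% had a Benjamini-Hochberg adjusted p under 0.05, 30.4% with lower and 28.5% with higher levels after luteolin. The tissue label was met by corneal epithelial markers, whose summed level was 37860 to 44029 TPM with vehicle and 64946 to 67158 TPM with luteolin. TPM, a transcript abundance scaled for length and depth, is used wherever levels of different genes are set side by side. Summed skeletal muscle markers, which are foreign to cornea, ran unevenly within both groups, from 3.58 to 164 TPM with vehicle and from 4.88 to 69.9 TPM with luteolin.

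In the mouse genome Il1a and Il1b are immediate neighbours on chromosome 2, and Il1r2, Il1r1, Il1rl2, Il1rl1, Il18r1 and Il18rap follow each other in that order on chromosome 1. The promoters of the adjacent pair Il1a and Il1b are shown because their transcripts differed in how far they moved, and those of Il1rl1 because it has 2 annotated starts and a read pattern described further on. Each is the 250 bases before a transcription start, 5′ to 3′ on the gene's strand, from RefSeq (build GRCm38.p6), where all 10 genes matched, with 17 windows in all. Capitals mark matches to TGANTCA, the AP-1 type motif, or to TTNNGNAA, a C/EBP type motif, on either strand. The windows lie at chr2:129309973-129310222 on the minus strand for Il1a, chr2:129371140-129371389 on the minus strand for Il1b, and chr1:40429320-40429569 and chr1:40439379-40439628 on the plus strand for the first and second start of Il1rl1.
Il1a: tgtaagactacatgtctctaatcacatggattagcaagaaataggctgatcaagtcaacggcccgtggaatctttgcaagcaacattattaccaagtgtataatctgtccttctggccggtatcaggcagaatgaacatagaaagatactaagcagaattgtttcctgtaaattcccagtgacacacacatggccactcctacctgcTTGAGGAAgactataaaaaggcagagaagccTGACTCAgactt
Il1b: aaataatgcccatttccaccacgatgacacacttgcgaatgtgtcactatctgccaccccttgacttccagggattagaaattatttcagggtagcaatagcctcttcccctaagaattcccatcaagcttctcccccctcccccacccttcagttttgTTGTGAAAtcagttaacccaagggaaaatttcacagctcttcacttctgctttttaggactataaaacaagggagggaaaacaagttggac
Il1rl1 start 1: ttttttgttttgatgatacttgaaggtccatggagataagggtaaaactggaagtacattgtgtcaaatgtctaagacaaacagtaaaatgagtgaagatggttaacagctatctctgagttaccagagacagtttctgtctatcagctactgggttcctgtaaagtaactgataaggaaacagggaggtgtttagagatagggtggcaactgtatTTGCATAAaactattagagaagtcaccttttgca
Il1rl1 start 2: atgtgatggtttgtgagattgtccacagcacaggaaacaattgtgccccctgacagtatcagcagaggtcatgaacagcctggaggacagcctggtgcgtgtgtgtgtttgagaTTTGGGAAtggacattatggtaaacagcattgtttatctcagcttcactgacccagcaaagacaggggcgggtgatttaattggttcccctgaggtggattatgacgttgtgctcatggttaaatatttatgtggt
The Il1a window held TGACTCA with its first base 12 bases before the start and TTGAGGAA 43 bases before it. The Il1b window held TTGTGAAA 91 bases before the start and no TGANTCA match. TGANTCA occurred in 6.75% of the 32851 RefSeq promoter windows of this length and, with any start counted, in 7.82% of genes and in 2 of the 10 (Il1a and Il1rn). TTNNGNAA occurred in 36.8% of all windows, in 40.3% of genes and in 6 of the 10. The NF-kB consensus occurred in 7.25% of all windows, in 8.23% of genes and in 1 of the 10, Il1r1. No searched motif overlapped another in the printed windows. These are letter matches, not measured binding sites, and a window without a match says nothing of the factor.

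The comparison asked how corneal transcript levels differed between luteolin and vehicle. After luteolin 7 of the 10 genes fell: Il1b and Il33 among the ligands, the antagonist gene Il1rn, and the receptor genes Il1rl1, Il18r1, Il1r2 and Il1rap. None of the 10 rose by the edgeR test, against the 28.5% of all tested genes, and Il1a, Il18 and Il1r1 did not pass it. The largest decreases were a 95.7-fold fall of Il1b and a 52.8-fold fall of Il1rl1. The 7 of 10 genes that fell stand beside 30.4% of all tested genes, and the median log2 fold change of the 10 was -0.96 beside -0.02 for all tested genes. The libraries of the groups did not overlap in CPM (counts scaled to library size) for 8 of the 10 genes, beside 67.4% of all tested genes. The counts of these genes were whole numbers in every library, so no reads had been divided with similar genes. All 10 passed the filter on low counts, Il1b and Il1rl1 through the vehicle group only, as did 848 of the 13838 tested genes. For a gene that passes in that way, the filter itself favours a lower level with luteolin.

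**Figure D1:**
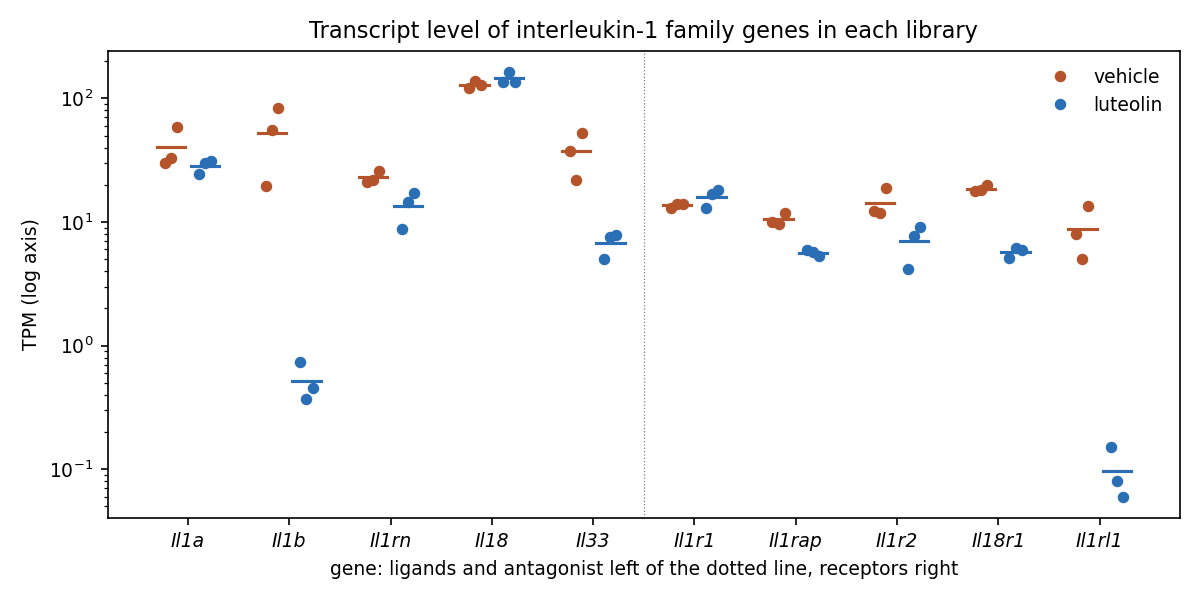
Level of each interleukin-1 family gene in TPM on a log axis, with 1 point per library (3 vehicle, 3 luteolin) and a bar at the group mean. The luteolin points of Il1b and Il1rl1 lie at or below 0.74 TPM, and Il18, at 135.91 to 163.41 TPM with luteolin, is the highest gene in both groups.

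Il1b (gene ID 16176) stood at 19.59, 54.99 and 83.25 TPM in vehicle libraries 1 to 3 and at 0.74, 0.37 and 0.45 TPM in luteolin libraries 1 to 3. Vehicle libraries were widely spread, with vehicle 1 the lowest, and every luteolin library lay below 1 TPM. These luteolin values rest on 9, 4 and 5 reads, against 238, 670 and 1013 reads with vehicle. The log2 fold change was -6.58 (SE 0.727, 95% interval -8.28 to -4.88, adjusted p = 0.000337), the 37th largest of the 13838 genes by size. Over the 17 alternatives tried, which include leaving out each library, the log2 fold change of Il1b lay between -6.99 and -4.93 and passed the threshold each time.

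Its neighbour Il1a (gene ID 16175), the epithelial alarm cytokine, stood at 30.07, 32.89 and 58.29 TPM with vehicle and at 24.38, 29.83 and 30.89 TPM with luteolin. The highest luteolin library lay above the lowest vehicle library, and vehicle 3 stood well above the other 5 libraries. The log2 fold change was -0.51 (SE 0.261, 95% interval -1.13 to 0.10), with an adjusted p of 0.127. That estimate rested mostly on vehicle 3, without which it was -0.15 with an adjusted p of 0.327. The intervals of Il1a and Il1b did not overlap. The ratio of Il1b to Il1a in TPM was 0.651, 1.67 and 1.43 in the vehicle libraries and 0.0304, 0.0124 and 0.0146 in the luteolin libraries. Il1b was thus the more abundant of the pair in 2 of 3 vehicle libraries, and Il1a was so in all luteolin libraries.

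Il33 (gene ID 77125), which encodes the nuclear alarm cytokine of barrier cells, stood at 37.80, 21.75 and 52.10 TPM with vehicle and at 4.98, 7.55 and 7.80 TPM with luteolin. The groups did not overlap, and the spread among vehicle libraries was wider than among luteolin libraries. Il33 fell 5.49-fold (log2 fold change -2.46, SE 0.340, 95% interval -3.25 to -1.66, adjusted p = 0.000847).

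Il18 (gene ID 16173) was the most abundant of the 10 genes in both groups. It stood at 120.80, 138.22 and 127.96 TPM with vehicle and at 135.91, 163.41 and 135.97 TPM with luteolin, so the groups overlapped in TPM although not in CPM. The log2 fold change of 0.22 (SE 0.0933) had an adjusted p of 0.0800, and its 95% interval reached up to 0.44. Il18 made up 37.9% of the summed TPM of the 10 genes with vehicle and 63.5% with luteolin, as means over libraries. Over the same libraries the share of Il1b was 14.4% and 0.235%. The summed TPM of the 10 genes was 290.18, 328.34 and 425.07 with vehicle, against 203.11, 252.07 and 230.85 with luteolin.

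The antagonist gene Il1rn (gene ID 16181) stood at 21.12, 21.89 and 25.71 TPM with vehicle and at 8.70, 14.54 and 17.29 TPM with luteolin. Every luteolin library lay below every vehicle library, with luteolin 1 the lowest. Il1rn fell 1.70-fold (log2 fold change -0.76, SE 0.236, 95% interval -1.31 to -0.21, adjusted p = 0.0261). The call was lost without vehicle 3 (-0.67, adjusted p = 0.0625) and without luteolin 2 (-0.83, adjusted p = 0.0503). Antagonist and agonist changed by different amounts. The ratio of Il1rn to Il1b in TPM was 1.08, 0.398 and 0.309 in the vehicle libraries and 11.8, 39.3 and 38.4 in the luteolin libraries. Against Il1a, which did not pass the test, the ratio of Il1rn was 0.702, 0.666 and 0.441 with vehicle, against 0.357, 0.487 and 0.560 with luteolin, and the groups overlapped.

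Il1r1 (gene ID 16177), the signalling receptor of both interleukin-1 ligands, stood at 13.02, 13.95 and 13.90 TPM with vehicle and at 13.07, 16.68 and 17.97 TPM with luteolin. Luteolin 1 lay within the vehicle range, while the other two luteolin libraries lay above it. The log2 fold change was 0.22 (SE 0.124, 95% interval -0.07 to 0.51) with an adjusted p of 0.163. Without luteolin 1 it was 0.34 with an adjusted p of 0.0127.

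Its accessory chain did not follow it. Il1rap (gene ID 16180) stood at 10.04, 9.56 and 11.89 TPM with vehicle and at 5.91, 5.70 and 5.35 TPM with luteolin. The libraries of each group lay close together and the groups were well apart. Il1rap fell 1.87-fold (log2 fold change -0.90, SE 0.111, 95% interval -1.16 to -0.64, adjusted p = 0.000524), and its interval did not overlap that of Il1r1.

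The decoy receptor gene Il1r2 (gene ID 16178) stood at 12.16, 11.80 and 18.80 TPM with vehicle and at 4.16, 7.70 and 9.18 TPM with luteolin. The groups did not overlap, but vehicle 3 was high and luteolin 1 low within their groups. Il1r2 fell 2.03-fold (log2 fold change -1.02, SE 0.325, 95% interval -1.78 to -0.26, adjusted p = 0.0287). It no longer passed the threshold without vehicle 3 (-0.78, adjusted p = 0.0745), without luteolin 1 (-0.76, adjusted p = 0.0557) or without luteolin 2 (-1.10, adjusted p = 0.0597). The ratio of the decoy to the signalling receptor, Il1r2 to Il1r1 in TPM, was 0.934, 0.846 and 1.35 with vehicle, against 0.318, 0.462 and 0.511 with luteolin. That ratio was thus lower in each luteolin library than in any vehicle library.

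Il18r1 (gene ID 16182), the ligand-binding chain for interleukin-18, stood at 17.65, 18.30 and 19.77 TPM with vehicle and at 5.11, 6.21 and 5.89 TPM with luteolin. It had the tightest groups of the genes that fell by more than 3-fold. Il18r1 fell 3.40-fold (log2 fold change -1.77, SE 0.110, 95% interval -2.02 to -1.51, adjusted p = 5.47e-05), the smallest adjusted p of the 10 genes. Receptor and ligand differed here, since Il18 itself did not fall in any alternative.

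Il1rl1 (gene ID 17082), which encodes the interleukin-33 receptor ST2, stood at 7.93, 4.99 and 13.40 TPM with vehicle and at 0.15, 0.08 and 0.06 TPM with luteolin. All luteolin libraries were near the limit of detection, on 8, 4 and 3 reads, against 267, 175 and 445 reads with vehicle. Il1rl1 fell 52.8-fold (log2 fold change -5.72, SE 0.509, 95% interval -6.91 to -4.53, adjusted p = 0.000151), the 55th largest of all tested genes by size. The ratio of receptor to ligand, Il1rl1 to Il33 in TPM, was 0.210, 0.229 and 0.257 with vehicle, against 0.0301, 0.0106 and 0.00769 with luteolin. Across the vehicle libraries Il33 and Il1rl1 had the same order, lowest in vehicle 2 and highest in vehicle 3, whereas luteolin 1 had the lowest Il33 and the highest Il1rl1 of its group.

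**Figure D2:**
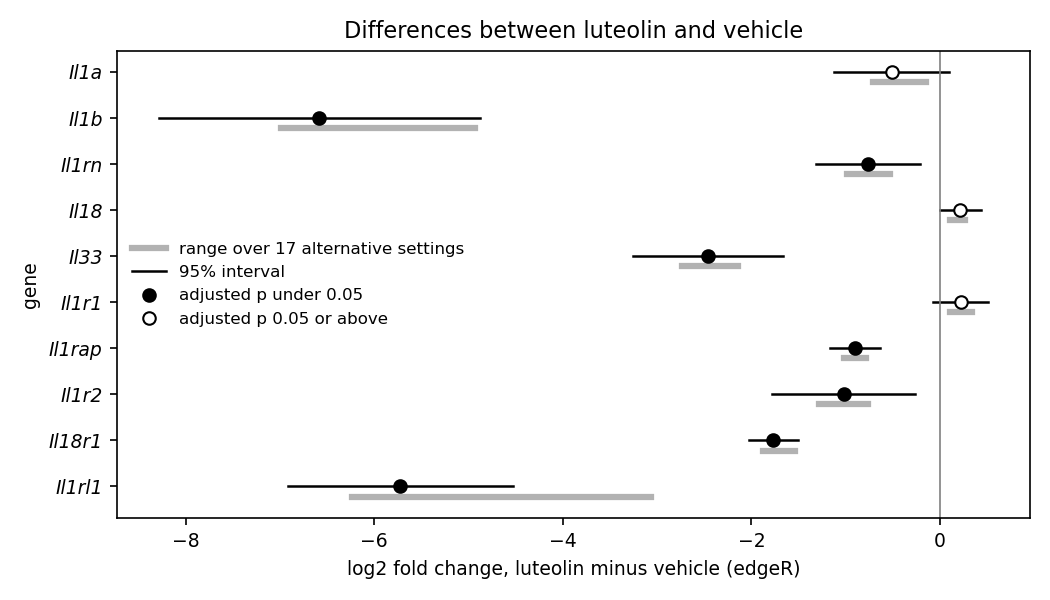
Log2 fold change of each gene, luteolin minus vehicle, from edgeR (points, filled where the adjusted p is under 0.05), with its 95% interval (black line) and the range over the 17 alternative settings (grey line). The 7 filled points all lie below 0, from -0.76 for Il1rn to -6.58 for Il1b, and the grey ranges of Il1b and Il1rl1 reach toward 0 because of log2(TPM + 1), where a pseudocount of 1 exceeds their luteolin levels.

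The 10 genes shared their order among replicate libraries only in part. Vehicle 3 was the highest vehicle library for 8 of them, all but Il1r1 and Il18. Luteolin 1 was the lowest luteolin library for 7 of them but the highest for Il1b, Il1rap and Il1rl1. For Il1b and Il1rl1 its place rests on only 9 and 8 reads. In mean TPM the vehicle order was Il18, Il1b, Il1a, Il33, Il1rn, Il18r1, Il1r2, Il1r1, Il1rap and Il1rl1. The neighbours Il1b and Il1a, Il1a and Il33, and Il33 and Il1rn overlapped over libraries, as did Il18r1 and Il1r2, Il1r2 and Il1r1, and Il1rap and Il1rl1, while Il18 stood above all the others. With luteolin Il18 was followed by Il1a, then by Il1r1, Il1rn, Il1r2, Il33, Il18r1 and Il1rap, and Il1b and Il1rl1 came last. From Il1r1 to Il1rap each neighbour overlapped the next, while Il18, Il1a, Il1b and Il1rl1 stood clear of theirs. Il1r1 lay below Il18r1 in every vehicle library and above it in every luteolin library, although its own level did not pass the test.

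The reads of Il1rl1 also differed in the transcript length they implied. For each gene and library, the deposited count and FPKM give the effective length used in quantification, which depends on how reads were assigned to long and short transcripts. For Il1rl1 it was 2904, 3002 and 2833 bases with vehicle and 4973, 4974 and 4636 bases with luteolin. Rounding of the deposited FPKM leaves a range of 4736 to 5235 bases for luteolin 1, 4521 to 5526 for luteolin 2 and 4121 to 5299 for luteolin 3, so the groups differed beyond rounding. That alone held for 39.3% of 13692 genes, among them Il1a, Il18 and Il33. The ratio of group means was 1.67, beside 0.96 to 1.04 for the other 9 genes, and 28 of the 13692 genes (0.204%) had a ratio of at least 1.5 in either direction. GENCODE M21 lists Il1rl1 transcripts of 375, 1216, 2661, 5053 and 5302 bases, and the gene is known for a short transcript that encodes soluble ST2 and a long one that encodes the membrane receptor. The luteolin lengths rest on only 15 reads in all, the authors' transcript set is not stated, and the transcripts themselves were not counted. Because TPM divides by this length, it makes the Il1rl1 difference larger in TPM than in counts.

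**Figure D3:**
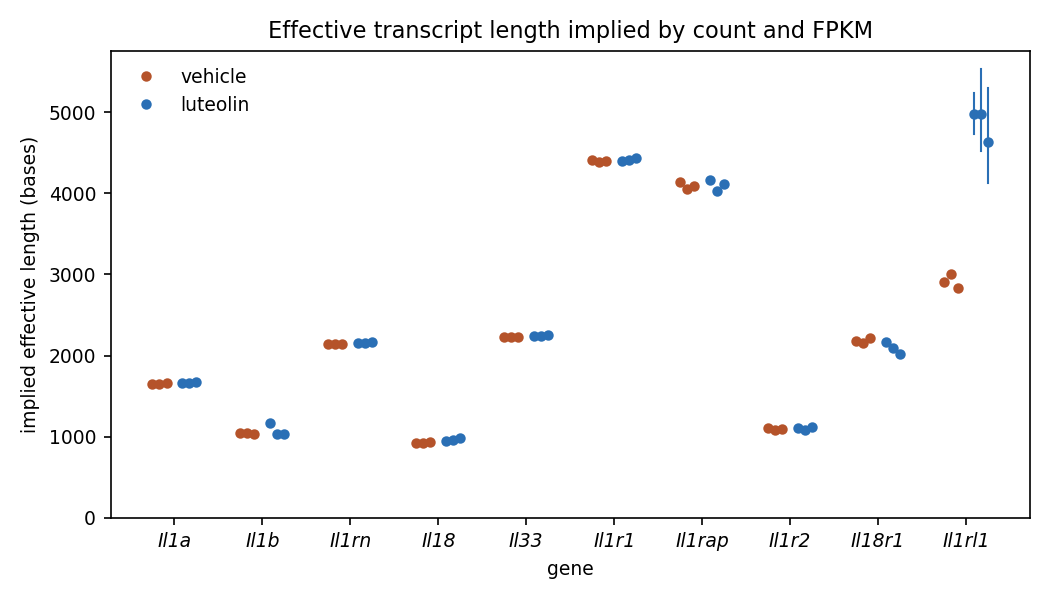
Effective transcript length in bases implied by the deposited count and FPKM of each gene, 1 point per library, with the range left by rounding of the FPKM as a vertical line. The points of both groups lie close together for 9 genes, and for Il1rl1 the luteolin points lie at 4636 bases or more and the vehicle points at 3002 or less.

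Other members of the family, taken from a list of 11, included genes that fell and genes that rose. Of the 8 that were tested 5 fell, beside 30.4% of all tested genes, and 2 rose, beside 28.5%, with a median log2 fold change of -1.11. Il1f6 and Il18rap passed the count filter through the vehicle group only. The genes of the interleukin-36 agonists, epithelial cytokines of the same family, were all lower. Il1f9 (interleukin-36 gamma) stood at 47.15, 38.68 and 88.30 TPM with vehicle and at 12.75, 22.30 and 28.63 TPM with luteolin (log2 fold change -1.45, adjusted p = 0.0149). Il1f6 (interleukin-36 alpha) changed by -1.78 (adjusted p = 0.0196) and Il1f8 (interleukin-36 beta) by -1.42 (adjusted p = 0.0170). These calls were less stable: Il1f6 lost its call without vehicle 3 (adjusted p = 0.0512), and Il1f8 without luteolin 1 (0.0614) or luteolin 3 (0.0593). The antagonist of the interleukin-36 receptor went the other way. Il1f5, which encodes it, stood at 1.52, 1.88 and 2.11 TPM with vehicle and at 5.90, 4.51 and 4.55 TPM with luteolin (1.42, adjusted p = 0.0015), while Il1rn, the interleukin-1 antagonist, fell. The receptor gene Il1rl2 did not pass the test (-0.21, adjusted p = 0.101), though it did in 4 alternatives, among them library sizes only (-0.32, adjusted p = 0.0201).

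The second interleukin-18 receptor chain moved with the first. Il18rap stood at 0.86, 1.32 and 1.57 TPM with vehicle and at 0.08, 0.27 and 0.14 TPM with luteolin, an 8.16-fold fall (log2 fold change -3.03, adjusted p = 0.000777) on 17 luteolin reads. Il18bp, whose product captures free interleukin-18, changed by -0.80 (adjusted p = 0.0113), with counts that were not whole and are uncertain. Sigirr, which encodes an inhibitory receptor of the family, rose by 0.79 (adjusted p = 0.0116).

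Genes for the maturation and release of the ligands were mostly lower, with 8 of 11 tested genes down beside 30.4% of all tested genes, 1 up and a median of -1.27. Of these 11, Casp4, Nlrp3, Aim2 and Cma1 passed the count filter through the vehicle group only. Casp1, the interleukin-1 beta and interleukin-18 convertase, stood at 6.02, 10.42 and 6.86 TPM with vehicle and at 1.43, 3.71 and 4.03 TPM with luteolin (-1.33, adjusted p = 0.0225), but not past the threshold without vehicle 2 (-1.07, adjusted p = 0.0531). Nlrp3, the inflammasome sensor, fell by 4.24 on the log2 scale (adjusted p = 0.00312) from 193 reads to 9, and was at -3.36 without vehicle 3. Aim2, the sensor of cytosolic DNA, changed by -3.09 (adjusted p = 0.000227), and Casp4 by -2.21 (adjusted p = 0.00764), or -3.19 without luteolin 3. The adaptor gene Pycard changed by -0.51 (adjusted p = 0.00305) and remained well expressed, at 47.91 to 59.43 TPM with luteolin. The mast cell protease genes Cma1 and Mcpt4, whose products can cut family ligands, changed by -1.85 (adjusted p = 0.00447) and -1.27 (adjusted p = 0.00645). Nlrp1b was the member that rose, from 0.29, 0.47 and 0.25 TPM to 1.46, 1.04 and 1.04 TPM (1.98, adjusted p = 0.0015). Its vehicle values rest on 14, 21 and 11 reads, and its luteolin 2 count was not whole (44.98). Casp8 changed by -0.18 (adjusted p = 0.0340), a call lost with DESeq2 (adjusted p = 0.0776) and in 5 other alternatives, with the replicate number as a block among them. Gsdmd, the pore-forming gene, did not pass (-0.26, adjusted p = 0.123) except with upper quartile factors or library sizes only (-0.37, adjusted p = 0.0412), and Nek7 did not pass either (-0.01, adjusted p = 0.932).

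The signalling chain below the receptors showed no such decrease. Of 15 genes from MyD88 to the IKK complex 6 were higher, beside 28.5% of all tested genes, 1 was lower and 8 did not pass, and the median was 0.23. Irak2, a kinase of the receptor complex, stood at 32.15, 37.24 and 33.61 TPM with vehicle and at 72.29, 66.12 and 63.76 TPM with luteolin (0.99, SE 0.077, adjusted p = 0.000105). Irak3, which encodes an inhibitory kinase made mainly by monocytes and macrophages, was the one that fell, from 3.74, 4.71 and 3.96 TPM to 1.30, 1.33 and 1.42 TPM (-1.63, adjusted p = 0.000301). Tab2 and Ikbkg, adaptor subunits of the downstream kinase complexes, rose by 0.34 (adjusted p = 0.00141) and 0.36 (adjusted p = 0.00218). Some of these calls depended on the scaling. With library sizes only, 5 genes were higher and 2 lower. Chuk then no longer passed (0.11, adjusted p = 0.165), and Myd88 was lower (-0.23, adjusted p = 0.0415).

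Genes known to be induced by interleukin-1 were lower in most cases, 15 of 18 tested with a median of -3.76, beside 30.4% of all tested genes, and none was higher, beside 28.5%. Of the 18, 8 passed the count filter through the vehicle group only, Ccl2, Mmp9 and Saa3 among them. For these the filter itself favours a lower level with luteolin. Ptges, the inducible prostaglandin E synthase, stood at 42.38, 40.66 and 54.18 TPM with vehicle and at 10.11, 11.48 and 9.83 TPM with luteolin (-2.13, adjusted p = 6.02e-05). Ccl2, the monocyte chemokine, fell 78.1-fold (-6.29, adjusted p = 9.51e-05), to 8 reads over the luteolin group, and Mmp9, the gelatinase linked to epithelial damage in dry eye, changed by -4.52 (adjusted p = 9.65e-05). Saa3, an acute phase gene, had 3 luteolin reads, a ratio of 2213 with an exact 95% counting interval of 757 to 10735 that covers counting error only. Many of these genes are also made by leukocytes or induced by other signals. The 3 genes that did not pass were Nfkbia, Nfkbiz and Zc3h12a, with log2 fold changes of -0.44, 0.00 and -0.40. Like Tnfaip3, which fell (-0.84, adjusted p = 0.0144), they encode regulators of NF-kB signalling or its transcripts. Nfkbiz depended on vehicle 3: it stood at 65.83, 64.94 and 132.70 TPM with vehicle and at 89.69, 87.18 and 89.97 TPM with luteolin, and without vehicle 3 it was higher with luteolin (0.44, adjusted p = 0.0018).

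Of 10 genes linked to interleukin-18 or interleukin-33 only 3 were tested, and these were lower, beside 30.4% of all tested genes. Arg1, arginase 1, stood at 312.05, 267.95 and 354.74 TPM with vehicle and at 151.02, 174.10 and 168.00 TPM with luteolin (-0.92, adjusted p = 0.000633). The growth factor gene Areg changed by -1.24 (adjusted p = 0.0131). Chil3, a chitinase-like gene of alternatively activated macrophages, had 162 vehicle reads and 0 luteolin reads, a fall of at least 49.2-fold if the luteolin libraries together are set at 3 counts, the limit that a count of 0 allows. It passed the count filter through the vehicle group only.

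**Figure D4:**
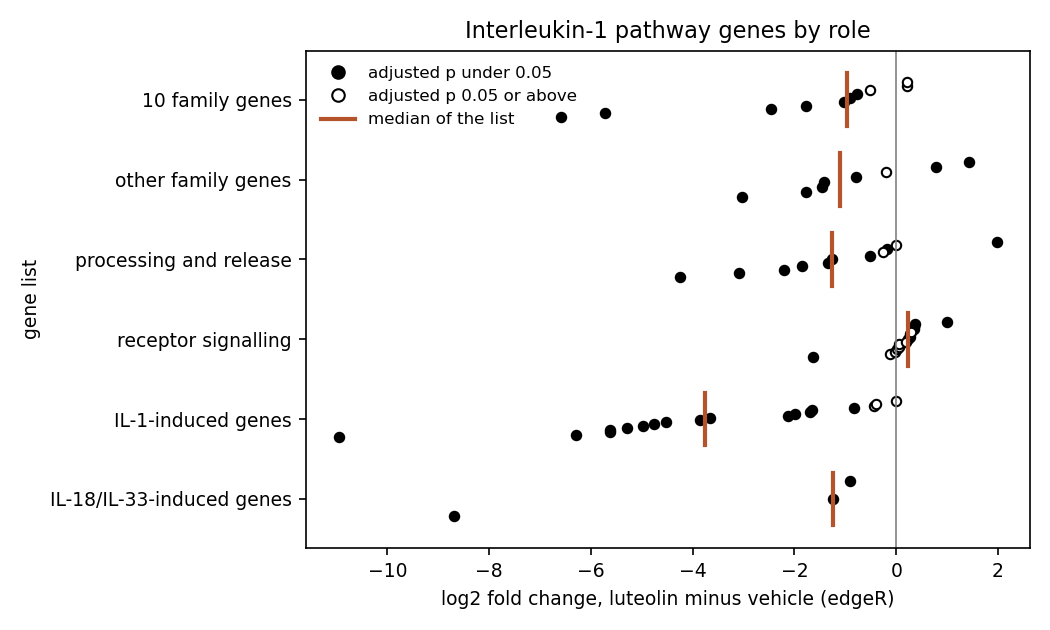
Log2 fold change (edgeR, luteolin minus vehicle) of each tested gene of the family and of 5 lists of related genes, filled where the adjusted p is under 0.05, with the median of each list as a bar. Most points of the processing and interleukin-1-induced lists lie below 0, with medians of -1.27 and -3.76, while the receptor signalling list is centred at 0.23.

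Several marker lists of cells known to carry family genes differed between the groups, some lower and some higher with luteolin. In whole tissue, fewer cells of a type and less RNA per cell cannot be told apart. The summed TPM of 9 neutrophil markers was 149 to 337 with vehicle and 3.96 to 14.8 with luteolin, where S100a8, Mmp8, Retnlg, Ngp, Camp and Ly6g were at 0 in all 3 libraries. Retnlg, Camp, Ly6g and Ngp had only 20, 8, 3 and 1 reads over the vehicle group, so their values of 0 say little. Most of the vehicle sum came from S100a8 (96.52, 77.38 and 204.18 TPM) and S100a9 (81.53, 56.39 and 117.24 TPM). With luteolin most of it was S100a9, at 3.61, 3.56 and 14.74 TPM. The 5 tested neutrophil markers passed the count filter through the vehicle group only, so that they were lower adds nothing to these sums. Summed macrophage and dendritic markers ran from 263 to 458 TPM with vehicle and from 51.2 to 66.0 TPM with luteolin. All 10 of these markers fell, beside 30.4% of all tested genes. Among them Adgre1 passed the count filter through the vehicle group only, and Cd163 overlapped between the groups. Neutrophils and macrophages are known sources of Il1b, and neutrophils carry much Il1r2. Their part in the Il1b and Il1r2 differences was not tested. Markers of T cells, NK cells and type 2 innate lymphoid cells summed to 7.32 to 11.1 TPM with vehicle and 1.84 to 2.96 TPM with luteolin, and the 3 of 9 that were tested likewise passed the filter through vehicle only.

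For Il1rl1, a receptor known on mast cells and type 2 innate lymphoid cells, the mast cell list gave a mixed picture. Its sum was 45.5 to 54.1 TPM with vehicle and 96.5 to 102 TPM with luteolin. Kit was the one of its 4 tested genes that rose, and it is a gene which corneal cells other than mast cells may express. It went from 32.82, 41.45 and 34.15 TPM to 97.97, 97.05 and 93.95 TPM. The mast cell genes Cpa3 (log2 fold change -1.39), Tpsb2 (-1.64) and Hdc (-4.55) fell. Hdc passed the count filter through the vehicle group only. Summed vessel endothelium markers were 70.0 to 121 TPM with vehicle and 10.1 to 15.9 TPM with luteolin. All 6 fell, beside 30.4% of all tested genes. The part of these cell types in the Il1rl1 and Il33 differences was not tested.

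Corneal epithelial markers went the other way, with 7 of 8 higher, beside 28.5% of all tested genes. The epithelium is a known source of Il1a, Il18, Il1rn and Il33. Keratocyte markers summed to 1761 to 5634 TPM with vehicle and 1177 to 2541 TPM with luteolin. Of these 8 markers 4 were lower, beside 30.4% of all tested genes. Corneal endothelial markers summed to 52.6 to 133 TPM with vehicle and 54.2 to 178 TPM with luteolin, so the groups overlapped. Of these 5 markers 1 was lower and 4 did not pass. Conjunctival markers summed to 4197 to 4438 TPM and 1845 to 2776 TPM, and all 3 in the table were lower, beside the same 30.4%. The part of these tissues in the levels of Il1a, Il18, Il1rn and Il33 was not tested.

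**Figure D5:**
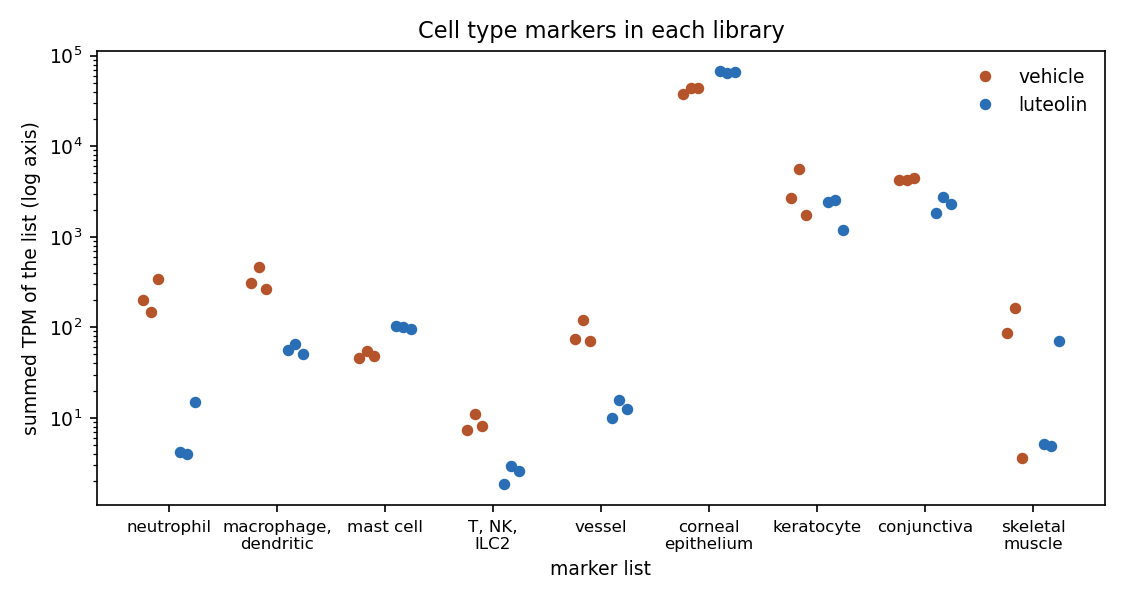
Summed TPM of each list of cell type markers except corneal endothelium on a log axis, 1 point per library. The neutrophil, macrophage, lymphoid, vessel and conjunctival sums are lower in every luteolin library than in any vehicle library. The corneal epithelial and mast cell sums are higher, and the keratocyte and skeletal muscle sums overlap. The mast cell sum is higher through Kit, while the mast cell genes Cpa3, Tpsb2 and Hdc fell.

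The genes most like 3 of the ligands over the 6 libraries were sought by the smallest root mean square difference of log2 CPM, each gene centred on its own mean. For Il1b, whose range over libraries was 7.30, these were Clec4e, a myeloid lectin receptor (difference 0.308), Sh2d5 (0.530) and Ccl7, a monocyte chemokine (0.564). Clec4e stood at 3.33, 8.08 and 11.3 CPM with vehicle and at 0 in all luteolin libraries, with the vehicle libraries in the same order as for Il1b. Clec4e, Ccl7 and Sh2d5, at or below 0.903 CPM with luteolin, could pass the count filter through the vehicle group only. The same holds for Nipal1, named below for Il33. For Il1a, with a range of 1.30, they were Adamtsl4 (0.125), the amino acid transporter gene Slc6a14 (0.138) and H2-T-ps (0.138). Slc6a14 stood at 452, 465 and 699 CPM with vehicle and at 286, 370 and 418 CPM with luteolin, again highest in vehicle 3 and lowest in luteolin 1. For Il33, with a range of 3.40, they were Orc1, a subunit of the replication origin complex (0.162), Nipal1 (0.195) and Tenm4 (0.242). Tenm4 stood at 42.3, 31.5 and 50.1 CPM with vehicle and at 7.54, 8.71 and 8.43 CPM with luteolin, with the lowest vehicle value in vehicle 2 as Il33 was. No gene was among the closest 3 of more than 1 ligand. As the genes were chosen for like values over the libraries, a shared library order is no separate result.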

How the data were processed

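RNA of whole corneas, frozen and taken up in Trizol, became TruSeq libraries, per the labels' protocols, and titles gave the 6 libraries their groups. Per the submitters' processing notes the tools were Bowtie2 2.2.5 and RSEM 1.2.12 and the build was mm9 (annotation and strand use: not given in the sources used here). The estimated counts were deposited by the authors, and 10.3% to 10.8% of them lay over 0.001 from a whole number. The authors' normalized read counts, a signal with 1 factor per library (0.945 to 1.07), served only as a check. FPKM and TPM values were deposited, per the file headers, scaled by length and depth. The 8 group average columns were not used.

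Rounded counts were tested with edgeR 4.0.16 (R 4.3.3): filterByExpr (minimum count 10, minimum total 15), TMM, the quasi-likelihood test without a block, and Benjamini-Hochberg adjustment over 13838 genes (threshold 0.05). Fold changes are luteolin minus vehicle, SE being the change over the square root of F. The genes and lists were chosen with earlier results of these data known. Named are the 10 genes, any tested gene of the other-family and processing lists, of the remaining lists the 4 smallest p or those against their list, and 3 genes most like Il1b, Il1a and Il33. Other genes, such as those that did not pass, were picked after their values were seen. Alternatives used DESeq2 1.42.0, limma 3.58.1, other factors and filters, a block and left-out libraries. The code was tested on simulated data.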

Additional observations from a re-analysis of the deposited data

How the results depend on the processing

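Of the 10 genes, 7 passed the threshold and 5 to 8 did so over the 17 alternatives, and none changed direction. Without vehicle 3 or without luteolin 2 the count was 5, as Il1rn and Il1r2 no longer passed, and leaving out any other library gave 7. Without luteolin 1 those 7 included Il1r1, which was higher, and not Il1r2. No pairing by replicate number was seen (correlation of deviations -0.15, 0.03 and 0.01 for numbers 1 to 3). Pairs with unlike numbers ran from -0.14 to 0.18. With 3 libraries per group this cannot show that the libraries were unpaired. With the replicate number as a block 8 genes passed, the added gene being Il18 (0.21, adjusted p = 0.0324). Il1b, Il33, Il1rap, Il18r1 and Il1rl1 passed in all 17. On log2(TPM + 1) Il1b was at -4.93 and Il1rl1 at -3.06, since the pseudocount exceeds their luteolin levels. Library sizes only moved the median of all tested genes from -0.02 to -0.13 and the share of calls that were lower from 51.6% to 63.6%, and upper quartile factors moved them to -0.11 and 61.9%. Depth limits Il1b and Il1rl1 most, whose luteolin values rest on single-digit read counts in each library.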

Other observations

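Some related genes did not reach the minimum count in enough libraries to be tested, and those named here were chosen after their values were seen. They did not all go the same way. Il1f10 had 1 read with vehicle and 8 with luteolin, Il1rapl1 had 2 and 6, and Il5 had 9 and 11. Gzmb had 75 and 2, and Nos2 had 35 and 2. Nlrc4, an inflammasome sensor gene, had a total of 25 reads with vehicle and 2 with luteolin, a ratio of 11.4 with an exact 95% counting interval of 2.84 to 99.2 that covers counting error only. Il6, a cytokine gene induced by interleukin-1, stood at 0.33, 0.63 and 4.46 TPM with vehicle and was at 0 in the 3 luteolin libraries. Csf3, the granulocyte growth factor gene, stood at 0.66, 0.82 and 11.78 TPM with vehicle and at 0.36, 0.48 and 0.62 TPM with luteolin, with vehicle 3 far above all others. Vehicle 3 was thus the highest library for Il6 and Csf3, as it was the highest vehicle library for 8 of the 10 family genes. Not all related genes had this order: Saa3 (548.11, 1759.41 and 652.95 TPM with vehicle) and Lcn2 (50.23, 277.29 and 47.5 TPM) were highest in vehicle 2.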
